A study of Rattus norvegicus with 12 samples.

Results

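The transcripts described here are those of the 26S proteasome, chosen by name as every array gene called Psma, Psmb, Psmc or Psmd with a number, other than the immunoproteasome subunits Psmb8, Psmb9 and Psmb10. The rule found 36 of the 36174 gene names on the array: 16 genes of the 20S core, 6 of the ATPases of the 19S base and 14 of the other 19S particle genes. They were measured in N27 cells, a line derived from fetal rat mesencephalon and immortalised with a viral large T antigen, so every culture described here carries that transgene. The groups were 7 cultures in which Vdac1 had been targeted with CRISPR, labelled VDAC1 KO and numbered KO 1 to KO 7, and 5 wild-type cultures, labelled WT and numbered 3, 5, 6, 7 and 8. VDAC1 is a channel of the outer mitochondrial membrane, and both groups were grown to the same degree of confluence with no other treatment named. The sources used here do not say how many knockout clones there were or if the cultures were raised separately. The p-values therefore measure only the spread between these samples, which may be technical.

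The proteasome degrades proteins that carry ubiquitin chains. Its core is a stack of rings in which the Psma genes encode the outer alpha rings, which gate the entrance, and the Psmb genes encode the inner beta rings, which hold the proteolytic sites. The 19S particle caps the core: the Psmc genes encode a ring of ATPases that unfolds substrates and opens the gate, and most Psmd genes encode scaffold, ubiquitin-receptor and deubiquitinase subunits. The subunits assemble in fixed proportions, and in many cells their genes are activated together by the transcription factor NRF1, the product of Nfe2l1, when proteasome activity is short. Dopamine neurons are of interest here because their inclusions in disease hold ubiquitinated protein.

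Each value comes from a single 60-base probe, so the probe sequences show which stretch of transcript was read. The probes of the core genes with the smallest p in each ring and of the 3 catalytic beta subunits are shown 5′ to 3′ in lower case, as the array files give them. The coordinates are those of the files, whose headers name build rn4, and exon or intron annotation of that build was not used here. The file coordinates of the Psmb1 and Psmb7 probes extend over 2615 and 19875 bases, longer than the probe itself.
Psma1, alpha ring, chr1:172240234-172240293, minus strand: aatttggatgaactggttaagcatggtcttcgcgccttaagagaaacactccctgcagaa
Psmb1, beta ring, chr1:54381876-54384490, minus strand: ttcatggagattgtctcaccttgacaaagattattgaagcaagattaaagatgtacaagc
Psmb5, chymotrypsin-like site, chr15:32690134-32690193, minus strand: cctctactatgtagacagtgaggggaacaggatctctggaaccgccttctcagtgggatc
Psmb6, caspase-like site, chr10:57372332-57372391, plus strand: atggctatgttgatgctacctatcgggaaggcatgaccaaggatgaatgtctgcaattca
Psmb7, trypsin-like site, chr3:18413231-18433105, minus strand: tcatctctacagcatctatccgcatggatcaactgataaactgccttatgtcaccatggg

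The 12 arrays lay on 3 slides, each with both genotypes, and the number of arrays limits the precision. Slide 1 held KO 6, KO 7, WT 3 and WT 8, slide 2 held KO 1, KO 2, KO 3 and WT 5, and slide 3, scanned on another day, held KO 4, KO 5, WT 6 and WT 7. The 75th percentile of spot signal differed 5.76-fold between arrays, and the share of spots well above background ran from 42.3% to 53.8%. Values are given throughout as log2 signal relative to that array's 75th percentile, which compares arrays for a probe and not probes with each other. Arrays also stood apart by sample number: KO 1 to KO 4 and WT 3 on one side, and KO 5 to KO 7 and WT 5 to WT 8 on the other, a division known from earlier results of these data and not named as a batch in the labels. Vdac1 itself lay between 1.20 and 2.68 in KO arrays and between 3.07 and 3.61 in WT arrays, a fitted difference of -1.23 (limma adjusted p = 0.0560), so transcript was still measured in the knockout. Of 10 markers of dopamine neurons 4 passed the filter on dim probes. Th, the rate-limiting enzyme of dopamine synthesis, was well above background on all 12 arrays, while Ddc, Slc6a3, En1 and Foxa2 were so on none. Of the markers of other cells, 1 of 6 general neuronal, 0 of 4 astrocyte, 0 of 4 oligodendrocyte, 1 of 4 microglial and 3 of 4 fibroblast genes passed the filter, and no marker of any list was called. Aldh1a1, Slc18a2 and Pdgfra divided by sample number, with their values given below. Col3a1, not tested, was well above background on 0 KO and 4 WT arrays, with WT 3 lowest of all 12 arrays at -6.52. Nr4a2, well above background on 1 KO and 4 WT arrays, reached the filter minimum of 5 mostly through WT. It differed by -1.19, with no p given for that reason, and KO 4, at -3.51, lay above every WT array.

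Of the 36 genes 34 were tested, and each of these was well above background on all 12 arrays, so none passed through 1 genotype alone. Psma8, the alpha subunit of the testis proteasome, was well above background on no array, and Psmb11, the beta subunit of the thymus proteasome, on 2 KO and 2 WT arrays. These 2 tissue-restricted genes were not tested.

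A single proteasome transcript, that of Psma1, passed the test between genotypes. Of the 34 genes 27 had a higher mean in KO than in WT cultures and 7 a lower one, with a median log2 difference of 0.16, against 0.04 over all 14743 features tested, of which 55.2% were positive. The differences lay between -0.39 for Psmc6 and 0.64 for Psma1. Of the 34, 26 were within 0.25 of zero, as were 8505 of all 14743 features. In the fit across all features 1 of the 34 rose (limma, Benjamini-Hochberg adjusted p under 0.05), where 0.699% of all features rose, and 0 fell, where 0.393% fell. At an unadjusted p under 0.05, 3 of the 34 were higher and 1 lower, or 8.82% and 2.94%, against 9.35% and 6.23% of all features. Scaling by the array median in place of the 75th percentile changed the calls over all features to 21 higher and 19 lower, against 103 and 58, and left no proteasome gene called by limma, with 2 (5.88%) higher and 1 (2.94%) lower at an unadjusted p under 0.05, against 5.49% and 7.92% of all features.

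**Figure D1:**
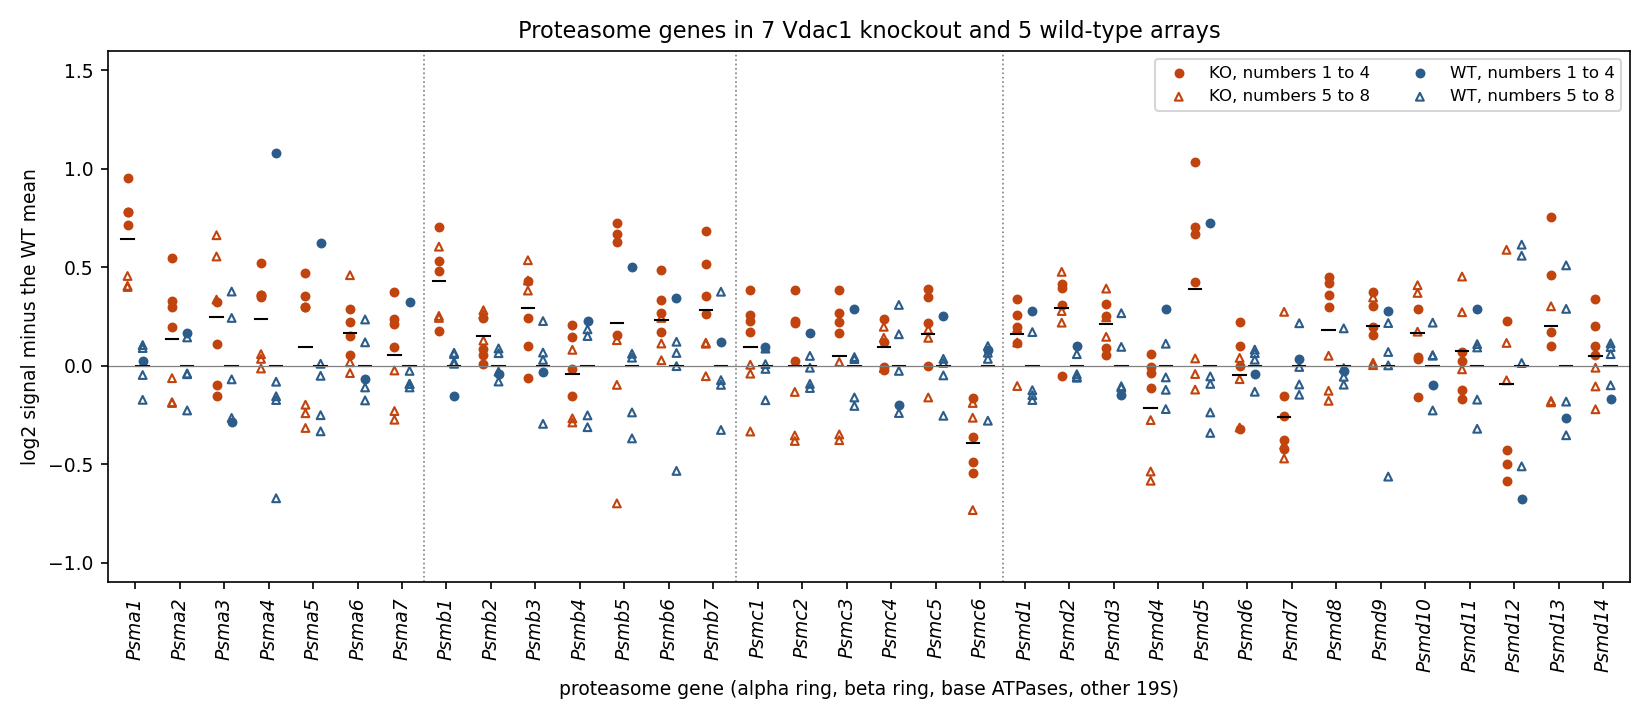
Log2 signal of the 34 tested proteasome genes on each array, as the difference from that gene's WT mean (vertical axis, log2), with KO in orange left of WT in blue; filled circles are sample numbers 1 to 4, open triangles 5 to 8, and bars are group means. All KO points lie above all WT points for Psma1 and Psmb1. Filled circles of both genotypes lie above the open triangles for Psma2, Psma4, Psma5, Psma7, Psmb5, Psmc1, Psmc3 and Psmd5.

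In the alpha ring, Psma1 was the single gene called. It measured 2.99, 3.23, 3.06, 3.06, 2.68, 2.73 and 2.68 in KO 1 to KO 7, against 2.30, 2.23, 2.38, 2.10 and 2.37 in WT 3, WT 5, WT 6, WT 7 and WT 8. Every KO array was above every WT array, with the lowest KO values in KO 5 to KO 7. Psma1 averaged 2.92 ± 0.22 (SD, n = 7) in KO and 2.28 ± 0.11 (SD, n = 5) in WT cultures, a log2 fold change of 0.64 (SE 0.13, limma adjusted p = 0.0409), or 1.56-fold. The difference was 0.38, 0.86 and 0.63 within slides 1, 2 and 3, and 0.43 among sample numbers 5 to 8 alone (limma adjusted p = 0.133). The call held without KO 5 or WT 3 but was lost without any other single array, with adjusted p between 0.0276 and 0.124, and its adjusted p ran from 0.0189 to 0.888 over all 30 alternatives. Normexp background correction gave 0.67 (adjusted p = 0.0996) and quantile normalization 0.55 (adjusted p = 0.0613).

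The other 6 tested alpha genes were all higher on average in KO, by 0.06 for Psma7 to 0.25 for Psma3, and none passed the test. That sign depended on sample number. With the number range, 1 to 4 or 5 to 8, as a block, Psma2 and Psma4 differed by -0.014 each, Psma5 by -0.15 and Psma7 by -0.095. Psma3 and Psma6 differed by 0.41 and 0.17 in that fit. Psma7 measured 2.73, 3.0, 2.87, 2.85, 2.61, 2.40 and 2.36 in KO 1 to KO 7, against 2.96, 2.54, 2.54, 2.61 and 2.52 in WT 3 and WT 5 to WT 8. Its groups overlapped (SE 0.15, limma adjusted p = 0.897), and a second, dimmer Psma7 probe gave 0.33 (adjusted p = 0.649). Psma6, an alpha-ring subunit, measured 5.26, 5.33, 5.17, 5.40, 5.57, 5.13 and 5.08 in KO 1 to KO 7, against 5.04, 5.0, 5.35, 5.23 and 4.94 in WT 3 and WT 5 to WT 8. The groups overlapped, with a difference of 0.17 (SE 0.13, limma adjusted p = 0.567). Psma4 had the widest WT spread of the alpha genes, 2.34 ± 0.65 (SD, n = 5) against 2.58 ± 0.21 (SD, n = 7) in KO, with WT 3 at 3.42 and WT 7 at 1.67. A like-named copy, Psma3l, differed by 0.24 (limma adjusted p = 0.738). Whether the Psma3 probe shares signal with Psma3l was not tested, so Psma3 is uncertain.

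In the beta ring, Psmb1, a subunit without proteolytic activity, was the other gene without overlap. It measured 2.40, 2.46, 2.10, 2.63, 2.53, 2.18 and 2.17 in KO 1 to KO 7, against 1.77, 1.94, 1.94, 1.98 and 1.99 in WT 3 and WT 5 to WT 8. It averaged 2.35 ± 0.20 (SD, n = 7) in KO and 1.93 ± 0.09 (SD, n = 5) in WT cultures. The difference was 0.43 (SE 0.13, unadjusted p = 0.00495, limma adjusted p = 0.120) and missed the threshold over all features. It was 0.29, 0.38 and 0.62 within slides 1, 2 and 3. Together 2 of 34 proteasome genes had every KO array above every WT array, where 1.84% of all features did, and 0 of 34 had every KO array below, where 0.882% did.

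The 3 catalytic genes, named after their values were seen, had higher means in KO and did not pass the test. Psmb5 measured 3.69, 3.65, 3.75, 3.18, 2.33, 2.93 and 3.15 in KO 1 to KO 7, against 3.53, 3.06, 2.79, 2.65 and 3.08 in WT 3 and WT 5 to WT 8. The KO values thus reached both above and below the whole WT range, and the mean difference was 0.22 (SE 0.25, limma adjusted p = 0.715). Psmb6 differed by 0.23 (SE 0.15, adjusted p = 0.485) and Psmb7 by 0.28 (SE 0.16, adjusted p = 0.416), with overlapping groups. A second Psmb6 probe gave -0.03, so the Psmb6 probes did not give the same sign. Psmb4, a beta subunit, was the single core gene with a negative mean difference, -0.04 (SE 0.15, limma adjusted p = 0.930). It measured 4.16, 4.46, 4.30, 4.52, 4.39, 4.03 and 4.05 in KO 1 to KO 7, against 4.54, 4.06, 4.50, 4.46 and 4.0 in WT 3 and WT 5 to WT 8, with the groups overlapping.

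Among the 6 base ATPases the median difference was 0.07, and Psmc6, the ATPase subunit Rpt4, was the gene furthest below zero of all 34. Psmc6 measured -1.69, -1.50, -1.31, -1.63, -1.88, -1.41 and -1.33 in KO 1 to KO 7, against -1.06, -1.04, -1.42, -1.11 and -1.08 in WT 3 and WT 5 to WT 8. Every KO array was below 4 of the 5 WT arrays, and WT 6 lay among the KO values. The difference was -0.39 (SE 0.13, unadjusted p = 0.0119, limma adjusted p = 0.175), and -0.30, -0.46 and -0.49 within slides 1, 2 and 3. Psmc5, the ATPase Rpt6, measured 4.60, 4.78, 4.74, 4.39, 4.23, 4.53 and 4.57 in KO 1 to KO 7, against 4.64, 4.34, 4.40, 4.13 and 4.42 in WT 3 and WT 5 to WT 8. The groups overlapped, with a difference of 0.16 (SE 0.13, limma adjusted p = 0.599). The other 4 ATPases lay between -0.002 for Psmc2 and 0.10 for Psmc1, whose second probe gave 0.08.

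Of the 14 other 19S genes 10 had a higher and 4 a lower mean in KO, with a median difference of 0.16 and none called. Psmd2, the large base scaffold Rpn1, measured 4.37, 4.48, 4.46, 4.01, 4.34, 4.28 and 4.54 in KO 1 to KO 7, against 4.16, 4.02, 4.0, 4.01 and 4.12 in WT 3 and WT 5 to WT 8. KO 4 alone of the KO arrays fell in the WT range, and the difference was 0.29 (SE 0.12, unadjusted p = 0.0290, limma adjusted p = 0.259). Psmd5, an assembly chaperone of the base that is absent from the finished particle, had the largest positive difference of the Psmd genes, 0.39 (SE 0.24, limma adjusted p = 0.456). Psmd7, the lid subunit Rpn8, had the lowest, -0.26 (SE 0.15, limma adjusted p = 0.412). It measured 1.11, 1.23, 1.33, 1.06, 1.76, 1.01 and 1.08 in KO 1 to KO 7, against 1.51, 1.34, 1.70, 1.48 and 1.39 in WT 3 and WT 5 to WT 8, so 6 of the 7 KO arrays lay below every WT array and KO 5 above them all. Psmd4, the ubiquitin receptor Rpn10, differed by -0.21 (adjusted p = 0.527), and Psmd14, the deubiquitinase Rpn11, by 0.05 (adjusted p = 0.889). Psmd9 and Psmd10, the other assembly chaperones of the base in this group, differed by 0.20 (adjusted p = 0.566) and 0.17 (adjusted p = 0.588). Psmd1, the second large scaffold, known as Rpn2, differed by 0.16 (adjusted p = 0.579). The lid subunits Psmd3, Psmd6, Psmd8, Psmd11 and Psmd13 lay between -0.05 for Psmd6 and 0.21 for Psmd3, and a second Psmd11 probe gave 0.27, against 0.07 for the first.

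**Figure D2:**
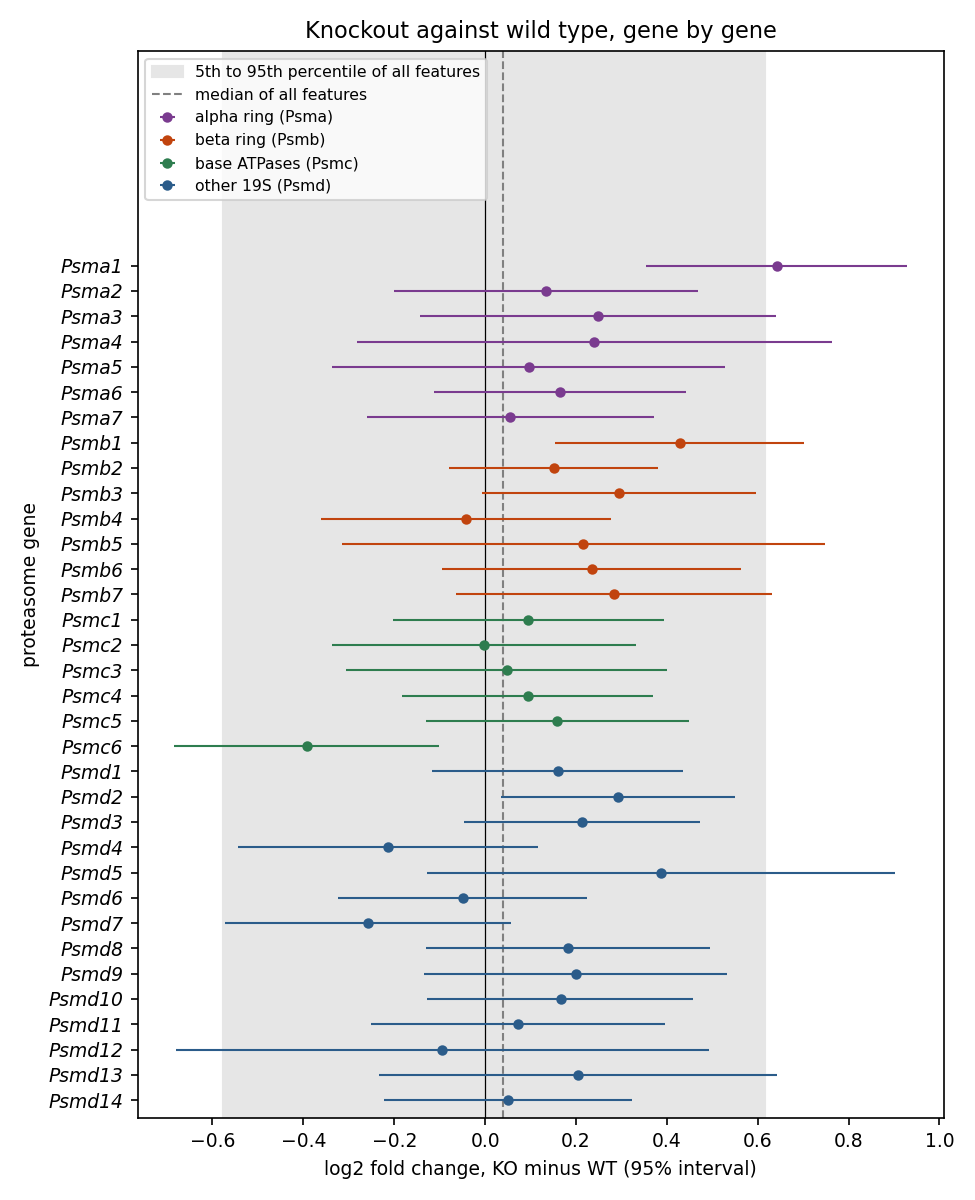
Log2 fold change, KO minus WT, for each tested proteasome gene (points) with its 95% interval from limma (lines), ordered by ring and particle from top to bottom. The shaded band runs from the 5th to the 95th percentile of all features, -0.58 to 0.62, and only Psma1 has its point outside it.

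The 95% intervals had half-widths of 0.23 to 0.59 log2 units. For 17 of the 34 genes the whole interval lay within 0.5 of zero. The interval reached a rise of 0.5 for 13 genes and a fall of that size for 4. For those genes the interval did not exclude a difference of 0.5 in that direction.

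The median over the core genes, each taken relative to its WT mean, was 0.28, 0.48, 0.24, 0.29, 0.10, 0.002 and 0.12 in KO 1 to KO 7, against 0.14, -0.06, 0.05, -0.14 and -0.02 in WT 3 and WT 5 to WT 8. KO 1 to KO 4 lay above every WT array, and KO 5 to KO 7 lay within the WT range. For the base ATPases KO 5 stood lowest, at -0.36, with 1 of 6 genes above its WT mean, while KO 2 stood highest at 0.31. KO 2 was also highest for the other 19S genes, at 0.31, followed by KO 5 at 0.26. The core, base and other 19S genes therefore did not keep the same order of arrays.

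**Figure D3:**
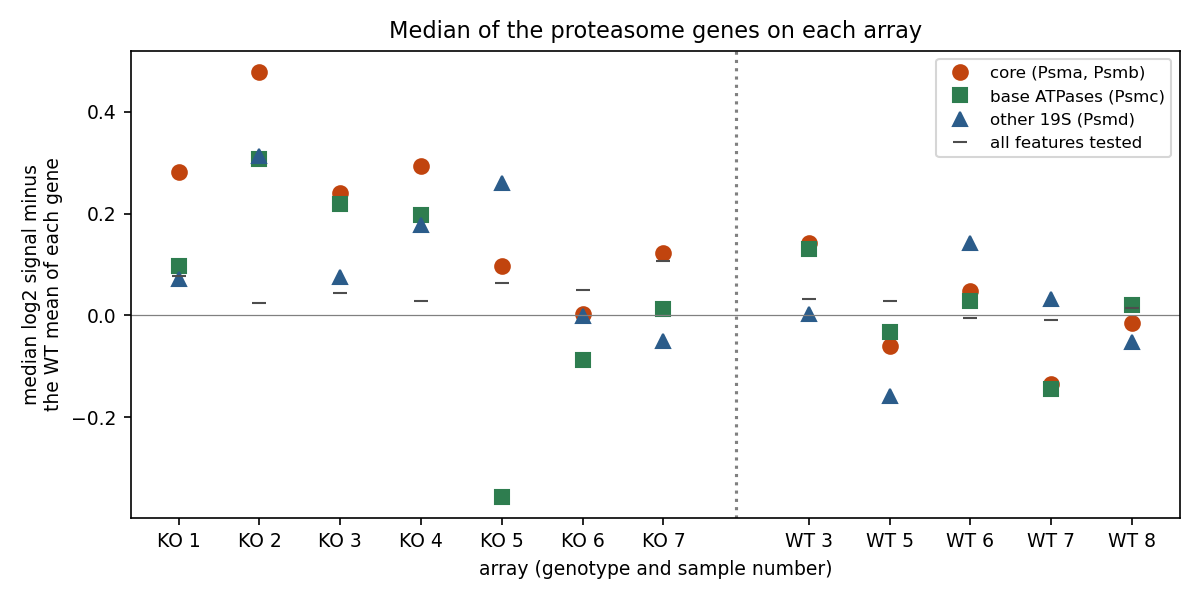
Median log2 signal of the core, base ATPase and other 19S genes on each array, each gene taken relative to its WT mean (vertical axis, log2), with KO arrays left of WT arrays and short bars for the median of all features. KO 1 to KO 4 are highest for the core genes, and KO 5 shows the base ATPases at -0.36 and the other 19S genes at 0.26.

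The KO arrays also differed among themselves by sample number. KO 5 to KO 7 were compared with KO 1 to KO 4, a comparison added after seeing the data. In KO 5 to KO 7, 10 of the 34 genes (29.4%) were lower (limma, adjusted p under 0.05), where 12.2% of all features were. At that threshold 0 were higher, where 14.3% of all features were. The 10 lower genes were Psma1, Psma2, Psma4, Psma5, Psmb5, Psmc2, Psmc3, Psmd4, Psmd5 and Psmd8. At an unadjusted p under 0.05 in limma, 13 (38.2%) were lower and 1 (2.94%) higher. The shares over all features at the unadjusted threshold are not given here. The median difference over the 34 was -0.18, against 0.04 over all features, and 24 were negative. Psmb5 differed most, averaging 0.77 lower on the log2 scale in KO 5 to KO 7 (difference -0.77, SE 0.23, limma adjusted p = 0.0419). Psmd5 followed at -0.75 (SE 0.16, adjusted p = 0.0124) and Psma5 at -0.61 (SE 0.12, adjusted p = 0.00787).

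WT 3 took the side of KO 1 to KO 4 for many of the same subunits. In 8 of the 34 genes (23.5%) every array numbered 1 to 4, WT 3 included, was above every array numbered 5 to 8, where 6.93% of all features were so divided; 0 were divided the other way, where 7.07% of all features were. The 8 were Psma2, Psma4, Psma5, Psma7, Psmb5, Psmc1, Psmc3 and Psmd5. Psmd5 measured -0.93, -0.32, -0.65, -0.69, -1.48, -1.40 and -1.32 in KO 1 to KO 7, against -0.63 in WT 3 and -1.60, -1.41, -1.70 and -1.45 in WT 5 to WT 8. For Psma5 the values were 3.15, 3.31, 3.20, 3.14, 2.60, 2.65 and 2.53 in KO 1 to KO 7, against 3.47 in WT 3 and 2.79, 2.51, 2.59 and 2.85 in WT 5 to WT 8. Of the 9 cell type markers tested, 3 were divided by number in 1 direction or the other, where 6.93% of all features were divided 1 way and 7.07% the other. Pdgfra was well above background on 3 KO and 3 WT arrays and Slc18a2 on 6 KO and 3 WT arrays. Their place among the tested markers thus depended on the filter on dim probes. Aldh1a1, a dopamine neuron marker, lay between -0.79 and -0.37 in numbers 1 to 4 and between -2.44 and -2.07 in numbers 5 to 8. Slc18a2, the vesicular monoamine transporter, lay between -4.61 and -3.88 in numbers 1 to 4 and between -3.77 and -2.59 in numbers 5 to 8, and Pdgfra, a fibroblast marker, between -6.69 and -5.65 and between -4.22 and -2.73. The summed linear signal of the 10 dopamine neuron markers, as a multiple of the 75th percentile, was 1.13 to 1.34 in numbers 1 to 4 and 0.689 to 0.971 in numbers 5 to 8, and that of the 4 fibroblast markers 0.259 to 0.676 and 0.362 to 0.766. Such sums add probes of unlike brightness, and the brightest weigh most. Of the 4 tested dopamine neuron markers Aldh1a1 was higher in numbers 1 to 4, Slc18a2 was lower, and Th and Nr4a2 overlapped. The sum therefore does not describe the markers as a set. The part of cell state or other cells in the division was not tested. The labels name no batch for these numbers, 4 of the 5 arrays numbered 1 to 4 are KO, and what sets the ranges apart was not tested.

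The genotype difference was recomputed within the number ranges. The median over the 34 genes was 0.074 among numbers 5 to 8 (3 KO and 4 WT arrays) and 0.094 among numbers 1 to 4 (4 KO arrays and 1 WT array), with no proteasome gene called by limma in either, where 4.67% and 0.353% of all features were called. The medians over all features were 0.075 among numbers 5 to 8 and -0.008 among numbers 1 to 4, so the median over the 34 did not stand above that of all features among numbers 5 to 8. By class it was 0.17 for the core, -0.13 for the base ATPases and 0.09 for the other 19S genes there. Among numbers 1 to 4 the class medians were 0.16, 0.02 and 0.10. At an unadjusted p under 0.05, 3 of the 34 genes (8.82%) were higher and 1 (2.94%) lower among numbers 5 to 8, against 11.8% and 8.76% of all features. Among numbers 1 to 4, 2 (5.88%) were higher and 1 (2.94%) lower, against 10.4% and 7.2% of all features. With the number range as a block Psma1 remained called (limma adjusted p = 0.0189), where 3.04% of all features were higher. In that fit the median was 0.15 for the core, -0.07 for the base ATPases and 0.10 for the other 19S genes, against 0.05 for all features. The test of whether the genotype difference itself changed between the ranges called 0 of the 34, where 1.94% of all features were called, with 4 (11.8%) at an unadjusted p under 0.05, against 16.4% of all features.

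By slide, 13 of the 34 genes had the same sign of KO minus WT on all 3 slides. The share over all features is not given here, so this count has no background to be read against. The median over the 34 was -0.06 on slide 1, whose WT arrays include WT 3, and 0.32 on slide 2, whose single WT array is WT 5. On slide 2 the fit called Psma1, Psmb5 and Psmd9 higher, where 7.2% of all features were, with the spread taken from the KO arrays. Psmc4 and Psmd12 were higher on all 4 arrays of slide 3 than on the 8 others, where 3.78% of all features were. Psmd12, the lid subunit Rpn5, measured 3.47 and 3.83 in KO 4 and KO 5 and 2.65, 2.81, 2.74, 3.17 and 3.36 in the other KO arrays, against 3.86 and 3.80 in WT 6 and WT 7 and 2.56, 2.73 and 3.25 in the other WT arrays. With slide as a block Psma1 differed by 0.60 (limma adjusted p = 0.0360), where 1.72% of all features were called higher.

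The partners of the constitutive particle gave no called gene in any of 8 lists. Of their 53 genes tested 5 (9.43%) had an unadjusted p under 0.05 (Psmb9, Psme4, Nfe2l1, Keap1 and Ube2k), against 15.6% of all features. The 3 immunoproteasome subunits, which replace the catalytic subunits in cells exposed to interferon, all had higher means in KO, with a median difference of 0.60. Within sample numbers 1 to 4 they did not share that sign. KO 1 to KO 4 lay below WT 3 for Psmb10, above it for Psmb8 and on both sides of it for Psmb9. Psmb10 measured 3.90, 4.09, 4.05, 3.96, 3.24, 3.05 and 2.995 in KO 1 to KO 7. In WT 3 and WT 5 to WT 8 it measured 4.14, 3.24, 3.22, 3.265 and 3.23. Psmb9 measured 3.10, 3.27, 3.33, 2.60, 2.09, 2.0 and 2.13 in KO 1 to KO 7, against 3.06, 1.8, 1.1, 1.6 and 1.67 in WT 3 and WT 5 to WT 8, a difference of 0.80 (SE 0.34, unadjusted p = 0.0356, limma adjusted p = 0.278). As for Psmb5, its constitutive counterpart, the values of Psmb8 divided by sample number, at 3.60 to 3.90 in arrays 1 to 4 and 2.43 to 2.87 in arrays 5 to 8. Psmb9 and Psmb10, and Psme2, a subunit of the interferon-inducible activator PA28, were divided in the same direction. Psme3, the nuclear PA28 subunit, and Psmf1, the proteasome inhibitor PI31, were divided in the opposite one.

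Of the 5 activator and inhibitor genes, Psme4, which encodes the nuclear activator PA200, had the smallest p, at -1.88 ± 0.29 (SD, n = 7) in KO and -1.37 ± 0.15 (SD, n = 5) in WT, a difference of -0.51 (SE 0.16, unadjusted p = 0.00592, limma adjusted p = 0.130). Of 6 assembly chaperones and associated factors tested none passed. Pomp, the maturation chaperone of the core, averaged 4.92 ± 0.035 (SD, n = 7) in KO and 4.68 ± 0.19 (SD, n = 5) in WT, a difference of 0.24 (limma adjusted p = 0.328). Of 5 genes tested from a list of receptors, deubiquitinases and other proteins at the 19S particle none passed. Sem1, which the array files call Shfm1, averaged 4.26 ± 0.43 (SD, n = 7) in KO and 3.92 ± 0.27 (SD, n = 5) in WT, a difference of 0.34 (limma adjusted p = 0.456).

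Among 10 transcription regulators tested 0 passed, with a median of -0.07. Nfe2l1, the gene of NRF1, averaged -1.01 ± 0.24 (SD, n = 7) in KO and -0.56 ± 0.34 (SD, n = 5) in WT, a difference of -0.45 (unadjusted p = 0.0215, limma adjusted p = 0.226). WT 3, at -1.14, lay among KO 1 to KO 4, at -1.35 to -1.04. KO 5 to KO 7, at -1.07 to -0.64, lay below WT 5 to WT 8, at -0.48 to -0.30. The part of NRF1 was not tested. Keap1, which restrains NRF2, differed by 0.43 (adjusted p = 0.233). The 7 ubiquitin genes and enzymes tested had a median of -0.08. Ube2k, a ubiquitin-conjugating enzyme, averaged -1.56 ± 0.52 (SD, n = 7) in KO and -0.85 ± 0.16 (SD, n = 5) in WT, a difference of -0.71 (unadjusted p = 0.00875, limma adjusted p = 0.154). The 9 shuttle and segregase genes had a median of 0.004, with Rad23b, a shuttle that brings ubiquitinated proteins to the proteasome, at -0.15 (adjusted p = 0.691). The 8 heat shock genes tested had a median of 0.21, and Hspa8, the constitutive HSC70 chaperone, differed by 0.44 (adjusted p = 0.339).

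The promoters of the genes were compared with all promoters for letters known from proteasome or housekeeping genes, counted on both strands from 250 bases before to 50 bases after the first RefSeq start (build GRCr8). A promoter was found for 31 of the 36 genes. TGACNNNGC, the core of the antioxidant response element to which NRF1 and NRF2 bind, was in 7 of 31 (22.6%), against 12.2% of 27457 promoters. CCAAT was in 16 (51.6%), against 37.7%, CCGGAA, an ETS-type motif, in 17 (54.8%), against 15.8%, and GGGCGG, an SP1-type motif, in 22 (71.0%), against 34.9%. These are matches of letters and not sites. The 140 bases before the start of Psma1, the called gene, and of Psmb5 are shown with these matches in capitals. Psmb5 was the tested member that differed most between KO 5 to KO 7 and KO 1 to KO 4. Of Psma1 and Psmb5, only Psmb5 holds TGACNNNGC in these bases.
Psma1, chr1:177887858-177887997, GRCr8, minus strand: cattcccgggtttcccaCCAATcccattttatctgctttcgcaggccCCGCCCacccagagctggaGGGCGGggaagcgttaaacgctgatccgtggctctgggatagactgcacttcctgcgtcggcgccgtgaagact
Psmb5, chr15:32047380-32047519, GRCr8, minus strand: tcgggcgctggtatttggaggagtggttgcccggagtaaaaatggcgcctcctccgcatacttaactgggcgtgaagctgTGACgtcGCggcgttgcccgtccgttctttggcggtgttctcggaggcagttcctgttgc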

How the data were processed

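Gene expression was measured on 12 one-colour Agilent arrays, 7 KO and 5 WT, grouped by their labels. Images were read with Feature Extraction 10.7 per the submitters' processing notes and 10.1.1.1 per the file headers. Per the file headers the deposited scanner files give spot intensity on a linear scale (processed signal, mean signal, background). Other deposited columns flag each spot for brightness over background, saturation and unevenness. No spot was saturated. The deposited value table holds the authors' log2 values, whose Spearman correlation with the scanner signal was 0.9986 or 0.9987 on each array, and served as an alternative.

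Flagged spots were dropped, spots of a probe averaged in log2, and each array's 75th percentile subtracted. The brightest probe stood for each gene name. Features well above background on at least 5 arrays were tested two-sided with no covariate by limma's lmFit and eBayes (limma 3.58.1, R 4.3.3), adjusted over all 14743 with the method of Benjamini and Hochberg, threshold 0.05. The fit was tested on simulated arrays with independent noise and no slide or number structure. It called 12% of added log2 changes of 0.5, 58% of 1, 84% of 1.5 and 86% of 2, with 10 false calls.

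Alternatives changed the background, scaling, filter, probe, batch terms and arrays used. The members, lists, motifs and rules were chosen with earlier results of these data known. Given with per-array values are called members, non-overlapping members, and those of each class with the smallest p, the extreme differences and the highest mean signal. Of each list the gene with the smallest p is named. Psmb5, Psmb6, Psmb7 and the genes that divided by sample number or slide, and the further members named as examples, were named after their values were seen. All 36 members matched RefSeq.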

Additional observations from a re-analysis of the deposited data

Results flagged for a closer look

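In 5 of 68 groups examined (34 genes in each genotype) 1 array lay far from the others by Dixon's test, which chance alone would give in about 1 group in 20. WT 3 stood apart in 3 of them. Psma7 was 2.96 there, with the next WT array at 2.61. Psmb1 was 1.77, below the next at 1.94. Psmd5 was -0.63, above the next at -1.41. Psmc6 was -1.42 in WT 6, with the next WT array at -1.11. Psmd7 was 1.76 in KO 5, with the next KO array at 1.33.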

How the results depend on the processing

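Psma1 stayed positive in all 30 alternatives and no proteasome gene was called lower in any. The called gene was lost (0 called higher) with the array median as scale (21 features higher and 19 lower in all, against 103 and 58), normexp (16 and 9), quantile normalization (56 higher), the deposited table (54 higher), no filter on dim probes (0 and 0), within slides 1 and 3 (0 and 0 in each) and among sample numbers 5 to 8 (340 and 348) or, chosen after seeing the data, 1 to 4 (47 and 5). Within slide 2 limma called 3 of the genes, and 1061 features higher and 923 lower. Requiring all 12 arrays above background gave 181 and 107 features, the slide as a block 253 and 151, and the number range as a block 448 and 303. Without single arrays 9 to 383 features were higher and 3 to 267 lower, most without WT 3, and 0 to 1 proteasome genes. Why the calls moved was not tested.

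The median over all 34 genes was 0.064 with quantile normalization, 0.040 with the deposited table, -0.06 and 0.317 within slides 1 and 2 and 0.074 among numbers 5 to 8. The core median was 0.11 with the deposited table and -0.024 and 0.371 within slides 1 and 2. The ATPase median was -0.06 with quantile normalization, -0.055 with the deposited table, -0.068 with the number range as a block, -0.19 and 0.29 within slides 1 and 2, and -0.13 among numbers 5 to 8, and the other 19S median was -0.056 within slide 1. Without single arrays the medians ran from 0.10 to 0.17 over all genes, 0.15 to 0.27 for the core, 0.02 to 0.11 for the ATPases and 0.09 to 0.19 for the other 19S genes. Correlations between KO and WT arrays of the same number were 0.46, -0.11, 0.07 and 0.05 for numbers 3, 5, 6 and 7. KO 3 correlated best with WT 3, the single WT array numbered 1 to 4. A pairing there cannot be told apart from the number range. KO 5 correlated best with WT 7, and KO 6 and KO 7 with WT 8. These values do not show if the cultures were raised in pairs. With the replicate block over the 4 shared numbers 0 features were called higher and 0 lower, 0 of the proteasome genes, and the core median was 0.10 and the ATPase median -0.07. The same arrays with no block, chosen after seeing the data, gave these values too.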
